A study of Mus musculus with 2 samples.

Results

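The miRNA genes that lie in or beside imprinted mouse genes were followed in embryonic heart, 5 of 1973 miRNA gene rows in the deposited tables. These are Mir335 at Mest, Mir483 at Igf2, Mir675 at H19, and Mir296 and Mir298 at the Gnas locus, all 5 found by gene identifier. They were chosen by their location and with their read counts in these same libraries known, so their levels are given as a description and carry no test. The study sequenced RNAs of under 30 nucleotides from hearts of healthy B6NCrl mouse embryos at 13.5 days, with males and females pooled. It holds 1 group of 2 libraries, labelled as biological replicates from separate biosamples of a single donor record, and no treatment, mutant or second tissue. How many hearts went into each library is not given in the sources used here.

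Imprinted genes are transcribed mainly from a single parental copy. Mest, a gene named for its expression in mesoderm, and Igf2, a fetal growth factor, are transcribed from the paternal copy, and so is Nespas, the long antisense RNA of the Gnas locus from which miR-296 and miR-298 are made. H19, a long noncoding RNA that shares enhancers and an imprinting control region with Igf2, is transcribed from the maternal copy. This background puts Mir335, Mir483, Mir296 and Mir298 on the paternal side and Mir675 alone on the maternal side. The hearts are of a single strain and the tables hold no allele counts, so parental origin was not measured here.

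A miRNA is cut from a hairpin within a longer transcript and finds its targets mainly through its seed, bases 2 to 8 from its 5′ end. A gene row adds up the reads of both arms of its hairpin, so both mature sequences of each gene are shown, with the seed in capitals. They are RefSeq sequences on GRCm38.p6, and RefSeq and the annotation gave the same hairpin coordinates for 5 of 5 genes.
miR-335-5p: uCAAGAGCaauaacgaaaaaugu
miR-335-3p: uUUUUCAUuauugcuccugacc
miR-483-5p: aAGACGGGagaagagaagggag
miR-483-3p: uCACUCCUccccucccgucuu
miR-675-5p: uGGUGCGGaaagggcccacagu
miR-675-3p: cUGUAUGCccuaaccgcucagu
miR-296-5p: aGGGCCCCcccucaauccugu
miR-296-3p: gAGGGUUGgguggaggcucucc
miR-298-5p: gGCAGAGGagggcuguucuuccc
miR-298-3p: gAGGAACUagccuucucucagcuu

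No seed was shared among the 10 sequences, and none of the 10 seeds occurred in another of the 1005 miRNA genes of that RefSeq table. Of the 497 mature sequences of the miRNA genes tested below, 281 (56.5%) had a seed found in no other gene of the table. The table is not complete, since 254 of the 288 tested genes had a hairpin in it. The seed of miR-296-5p held 7 of 7 bases that are G or C, and that of miR-335-3p held 1. The longest stretch that any of the 10 mature sequences shared with another hairpin was 12 nucleotides, in miR-335-5p, miR-483-3p and miR-298-3p. None of the 5 hairpins shared a run of 20 nucleotides with another hairpin of the table.

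The genes sit in their loci in different ways. Mir335 (ENSMUSG00000065501.1, mm10 chromosome 6, 30741299 to 30741396, plus strand) is intronic in 7 of 7 Mest transcripts that span it. Mir483 (ENSMUSG00000070140.1, chromosome 7, 142654924 to 142654996, minus strand) is intronic in 7 of 7 Igf2 transcripts that span it, and in 1 transcript of Gm49394. Mir675 (ENSMUSG00000076275.1, chromosome 7, 142577064 to 142577147, minus strand) is exonic in 3 of 4 overlapping H19 transcripts and intronic in the other. It lies 77776 bases from Mir483 on the same strand. Mir296 (ENSMUSG00000065521.1, chromosome 2, 174267047 to 174267125) and Mir298 (ENSMUSG00000065410.1, chromosome 2, 174267504 to 174267585) are both on the minus strand, 378 bases apart. In GENCODE M21 no transcript of another gene spans either of them. The annotated 3′ end of Nespas lies 13651 bases before Mir298 in the direction of transcription. The origin of Mir296 and Mir298 from Nespas, and so their paternal side, rests on background and is not shown by this annotation.

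Levels are sense counts, meaning reads on the strand of the gene, per 1000000 sense counts on all miRNA genes (CPM). Those totals were 5569959 in replicate 1 and 6039005 in replicate 2, and a count of 0 would allow up to 0.539 and 0.497 CPM. Intervals and this limit cover counting error only. Of the markers, the 6 heart muscle miRNAs summed to 50724 and 53395 CPM, from Mir208b, Mir208a and Mir499, while Mir1a-1 held 4.07 ± 0.598 CPM, Mir133a-1 held 2.89 ± 1.30 CPM and Mir133a-2 was at 0. The smooth muscle pair Mir143 and Mir145a summed to more, 85136 and 93532 CPM. Nearly all of it came from Mir143, while Mir145a held 899 ± 44.7 CPM. The endothelial Mir126a also held more than the heart muscle sum, at 74876 and 66025 CPM. Of 6 neural markers 5 had a row, 4 of these were at 0, and they summed to 2.51 and 1.49 CPM. Gene rows leave out reads that mapped to several places, so miRNAs with near-copies elsewhere may be undercounted. The low values of Mir1a-1, the Mir133a rows and the neural rows therefore do not show that these miRNAs were scarce. The heart muscle and neural sums may be too low for the same reason. The liver miRNA Mir122 held 201 CPM in replicate 1 and 591 CPM in replicate 2. The erythroid, leukocyte, skeletal muscle and epithelial markers each summed to between 83.3 and 1159 CPM.

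Among the paternal genes, Mir335 was far the most abundant. It held 603416 sense counts in replicate 1 and 675155 in replicate 2, which is 10.83% (exact 95% interval 10.81 to 10.86) and 11.18% (11.15 to 11.21) of all sense counts. It ranked first of all rows in both libraries, and those rows leave out reads that mapped to several places. In whole hearts, fewer cells of a type and less RNA per cell cannot be told apart, for this gene and the others. The next rows by mean level were Mir143, of smooth muscle, at 88435 ± 5892 CPM (SD, n = 2) and Mir322 at 84203 ± 9297 CPM. Mir335 exceeded Mir143 by 0.32 ± 0.06 and Mir322 by 0.39 ± 0.13 on the log2 scale (SD, n = 2), and lay above each in both libraries.

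Mir483, in the intron of the growth factor gene Igf2, held 19649 and 19020 counts, or 3528 CPM in replicate 1 (exact 95% interval 3479 to 3577) and 3150 CPM in replicate 2 (3105 to 3195). Replicate 1 was the higher, and the mean was 3339 ± 267 CPM at rank 40. Its neighbours in rank were Mir423 (3601 ± 238 CPM) and Mir431 of the maternally expressed Dlk1-Dio3 domain (3585 ± 338 CPM) above it, and Mir125a (3148 ± 399 CPM) and Mir342 (3067 ± 422 CPM) below it. All 4 differed from Mir483 in the same direction in both libraries and by more than the SD of the log2 ratio. The mean log2 ratios were only between -0.11 and 0.13. Neighbours were picked by mean level in these same libraries, which largely sets the direction of the mean difference. The SD rests on 2 libraries, so the comparison is a description and no test. The same holds for the rank neighbours of the other genes followed here.

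The Gnas locus pair came next. Mir296 held 15000 counts in replicate 1 and 12787 in replicate 2, or 2693 CPM (exact 95% interval 2650 to 2736) and 2117 CPM (2081 to 2154). Mir298 held 11078 and 11700 counts, or 1989 CPM (1952 to 2026) and 1937 CPM (1902 to 1973). Mir296 thus varied by 16.9% of its mean between the libraries and Mir298 by 1.85% (coefficient of variation, n = 2), the widest and the narrowest of the 5 genes. Mir296, at a mean rank of 50, did not differ beyond the SD of the log2 ratio from any of its 4 neighbours in rank, Mir379, Mir542, Mir503 and Mir361, which held between 2335 ± 126 and 2552 ± 199 CPM. Mir298, at rank 61, differed so from Mir381 (1872 ± 33.9 CPM) and Mir484 (1863 ± 52.0 CPM) below it but not from Mir188 (2003 ± 149 CPM) and Mir92-1 (1977 ± 224 CPM) above it.

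Mir675, the product of the maternally expressed H19, was the lowest of the 5. It held 907 counts in replicate 1 and 1065 in replicate 2, or 163 CPM (exact 95% interval 152 to 174) and 176 CPM (166 to 187), with a mean of 170 ± 9.56 CPM at rank 151. Its intervals in the 2 libraries overlapped. Its neighbours Mir34a (171 ± 27.0 CPM), Mir874 (170 ± 11.4 CPM) and Mir196b (168 ± 21.2 CPM) did not differ from it beyond the SD of the log2 ratio, while Mir329 (164 ± 5.35 CPM) did, by 0.05 ± 0.03.

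**Figure D1:**
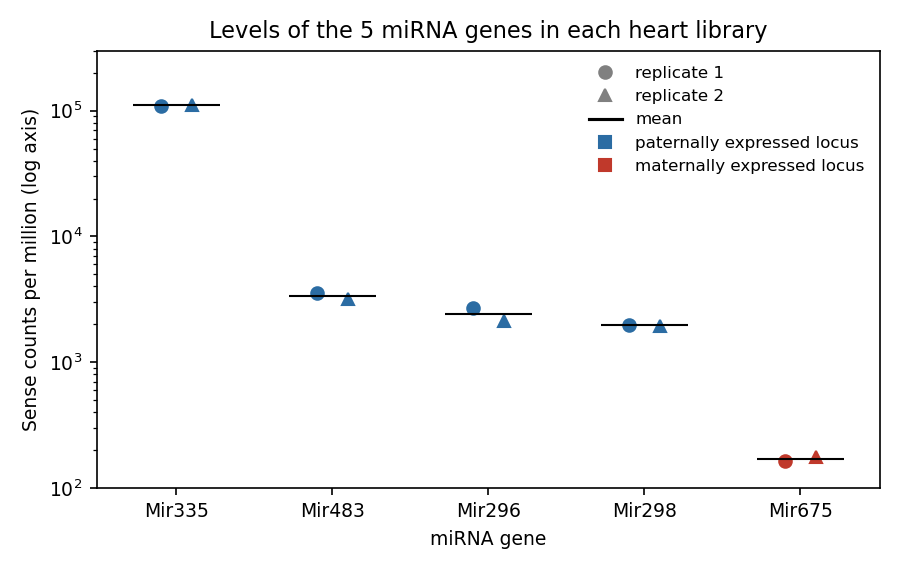
CPM of Mir335, Mir483, Mir296, Mir298 and Mir675 on a log axis, with a circle for replicate 1, a triangle for replicate 2 and a bar for their mean. The 4 genes of paternally expressed loci (blue) lie above Mir675 of the maternally expressed H19 (red) in both libraries.

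The contrast of paternal with maternal loci was made within each library, where the library total cancels. The 4 paternal genes together held 716 times the counts of Mir675 in replicate 1 (exact 95% interval 671 to 765) and 675 times in replicate 2 (635 to 717), a log2 ratio of 9.44 ± 0.06 (SD, n = 2). Most of that came from Mir335, which held 12.9 times the counts of the other 4 genes in replicate 1 and 15.1 times in replicate 2. Without Mir335 the paternal genes held 50.4 times (47.2 to 53.9) and 40.9 times (38.4 to 43.5) the counts of Mir675, a log2 ratio of 5.50 ± 0.21. No p-value is given, because the genes were chosen with these levels known and because an exact sign-flip permutation test on 2 libraries cannot go below 0.5.

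Within the Igf2 and H19 domain, Mir483 held 21.7 times the counts of Mir675 in replicate 1 (exact 95% interval 20.3 to 23.2) and 17.9 times in replicate 2 (16.79 to 19.01). The log2 ratio was 4.30 ± 0.20 (SD, n = 2), and the intervals of the 2 libraries did not overlap. Mir296 and Mir298 together held 1.33 times (1.30 to 1.35) and 1.29 times (1.26 to 1.31) the counts of Mir483.

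The order Mir335, Mir483, Mir296, Mir298, Mir675 was the same in both libraries for 10 of 10 pairs. For 9 of the 10 the mean log2 ratio was over 2 times its SD. The exception was Mir296 over Mir298, at 0.28 ± 0.22. Mir296 held 1.35 times the counts of Mir298 in replicate 1 (exact 95% interval 1.32 to 1.39) and 1.09 times in replicate 2 (1.07 to 1.12). For 8 of the 10 pairs the intervals of the 2 libraries did not overlap. The exceptions were Mir335 over Mir675 and Mir298 over Mir675. The 10 pairs reuse the same genes, and the intervals take reads copied by PCR as independent. The order was taken from mean levels in these same libraries, which favours its agreement between them. The SD rests on 2 libraries, so 2 times the SD is no test. How often other gene pairs keep their order, pass 2 times the SD or fail to overlap was not computed. None of these counts therefore marks out the 10 pairs. In the exact binomial test given below, 177 of 288 genes (61.5%) fell under an adjusted p of 0.05 between the libraries. Read counts also depend on how well each small RNA takes adapters, so a ratio of reads between miRNAs need not be the ratio of molecules, which was not tested.

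**Figure D2:**
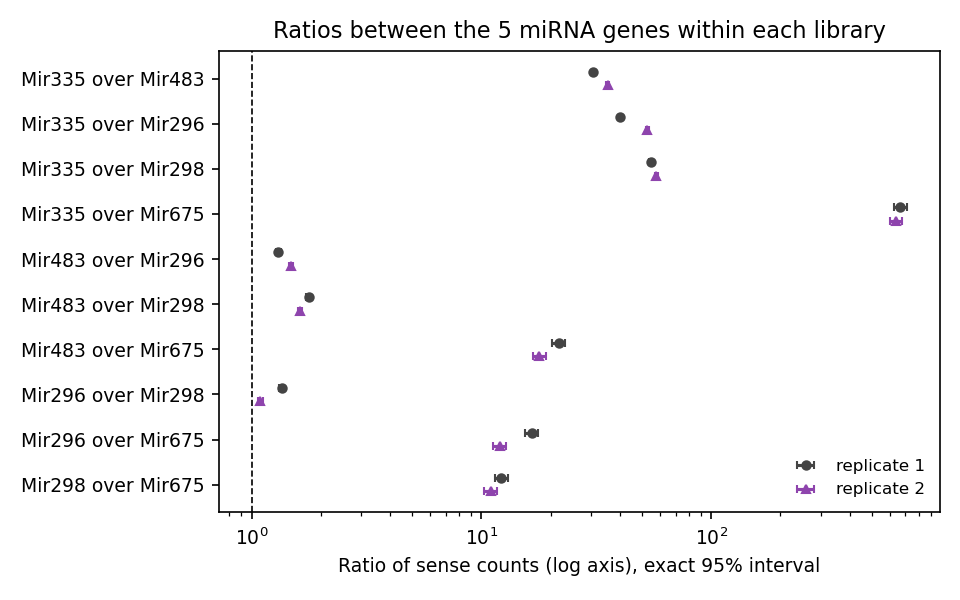
Ratio of sense counts for each of the 10 pairs of the 5 genes within replicate 1 (grey circles) and replicate 2 (purple triangles), on a log axis with exact 95% intervals of counting error and a dashed line at a ratio of 1. Every ratio lies above 1 in both libraries, and Mir296 over Mir298 in replicate 2 lies nearest to it at 1.09.

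The shift in the ratio of Mir296 to Mir298 between the libraries was 0.31 on the log2 scale. It was set beside all pairs of consecutive tested miRNA genes that lie within 10000 bases on the same strand, a comparison chosen after the values were seen. Those 101 pairs include Mir296 and Mir298 themselves. Their median shift was 0.20, with quartiles at 0.10 and 0.31, the upper being the shift of Mir296 and Mir298, and 25 pairs shifted more. Over the 14 pairs with both genes at 1000 CPM or more, which also include them, the median was 0.07 and 2 pairs shifted more.

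Differences between the libraries were then tested gene by gene across the 288 genes with a mean of at least 10 CPM, with an exact binomial test and Benjamini-Hochberg adjustment. Calls needed an adjusted p below 0.05 together with a 1.5-fold or larger ratio. With a single library on each side, the test covers counting error only and takes reads copied by PCR as independent, so its p-values do not measure the spread between libraries. None of the 5 genes was called, where 17 of 288 (5.90%) were. Adjusted p alone fell under 0.05 for Mir335, Mir483 and Mir296, 3 of 5 genes, beside 177 of 288 (61.5%). Under TMM scaling it did so for 5 of 5, beside 167 of 288 (58.0%), and under DESeq2 scaling for 5 of 5, beside 169 of 288 (58.7%). Again none of the 5 was called, where 16 of 288 (5.56%) were under each scaling.

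Mir296 had the largest difference of the 5, a log2 ratio of replicate 1 over replicate 2 of 0.35, and 81.2% of the tested genes had a smaller one in either direction. Mir483 was higher in replicate 1 by 0.16, a difference that 49.0% of the tested genes fell short of. Mir675 had a log2 ratio of -0.11, Mir335 of -0.05 and Mir298 of 0.04, and 34.4%, 11.1% and 9.38% of the tested genes had smaller ones. The median over all 288 genes was 0.10, so Mir335, Mir675 and Mir298 lay below the typical gene and Mir483 and Mir296 above it. TMM scaling moved that median to 0.00 and Mir298 to -0.06, a change of sign. The genes called split 14 higher in replicate 1 and 3 in replicate 2 on total counts, and 8 and 8 under TMM and under DESeq2 scaling.

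Mir122, the miRNA of hepatocytes, was higher in replicate 2 (log2 -1.55). On total counts, Mir675 (-0.11) and Mir335 (-0.05) were also higher in replicate 2. Mir296 (0.35), Mir483 (0.16) and Mir298 (0.04) were higher in replicate 1. Igf2, the host of Mir483, is strongly expressed in fetal liver. Whether liver tissue had a part in the values of Mir483 or of the other genes followed here was not tested.

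**Figure D3:**
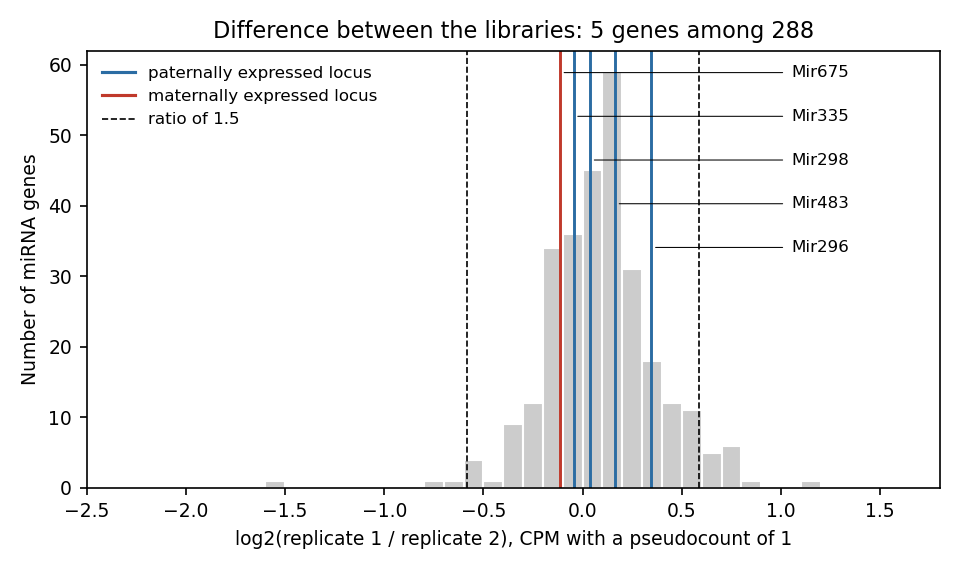
Histogram of the log2 ratio of replicate 1 over replicate 2 for the 288 miRNA genes tested (CPM with a pseudocount of 1), with lines at the 5 genes and dashed lines at a ratio of 1.5 in either direction. Each of the 5 lies between the dashed lines, from -0.11 for Mir675 to 0.35 for Mir296.

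Other imprinted miRNA clusters of the mouse, Dlk1-Dio3 and Sfmbt2, served as reference points. The maternally expressed Dlk1-Dio3 domain on chromosome 12 had 53 rows on the plus strand, the only ones used, of which 42 reached a mean of 10 CPM. It took 4.61% and 4.28% of the sense counts, a mean of 4.44% ± 0.237 (SD, n = 2), led by Mir487b at 7566 ± 11.9 CPM and Mir411 at 7120 ± 707 CPM. The intron cluster of Sfmbt2, placed on the paternal side, had 107 rows, of which 7 reached 10 CPM and 81 held no count in either library. Like that of Dlk1-Dio3, its parental side was taken from background knowledge, and whether it holds in heart was not measured. It took 0.331% ± 0.0118, led by Mir467d at 941 ± 116 CPM and Mir467c at 938 ± 11.6 CPM. The Sfmbt2 miRNAs are near-copies of each other, and reads that map to several places form a class of their own, so these rows may be undercounted.

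The 5 genes together took 11.7% and 11.9% of the sense counts, or 11.8% ± 0.175. That is 2.66 times the Dlk1-Dio3 share (log2 1.41 ± 0.10), and 35.6 times the Sfmbt2 share (log2 5.15 ± 0.07). Of the 53 Dlk1-Dio3 rows 48 had a hairpin sequence, and 41 of these shared no run of 20 nucleotides with another hairpin. Over those 41 rows alone, a setting chosen after the data were seen, the first ratio was 4.12. With these clusters added to each side, the paternal rows held 2.72 times the counts of the maternal rows (log2 1.44 ± 0.10). Without Mir335 the order turned, and the maternal rows held 4.05 times the counts of the paternal rows (log2 2.02 ± 0.03). With only those 41 Dlk1-Dio3 rows, these ratios were 4.21 and 2.61. The Dlk1-Dio3 domain as a whole held 262 times the counts of Mir675 (log2 8.03 ± 0.16), the 41 rows alone 169 times, and 14 of its rows were among the 100 most abundant, where Mir675 was not.

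**Figure D4:**
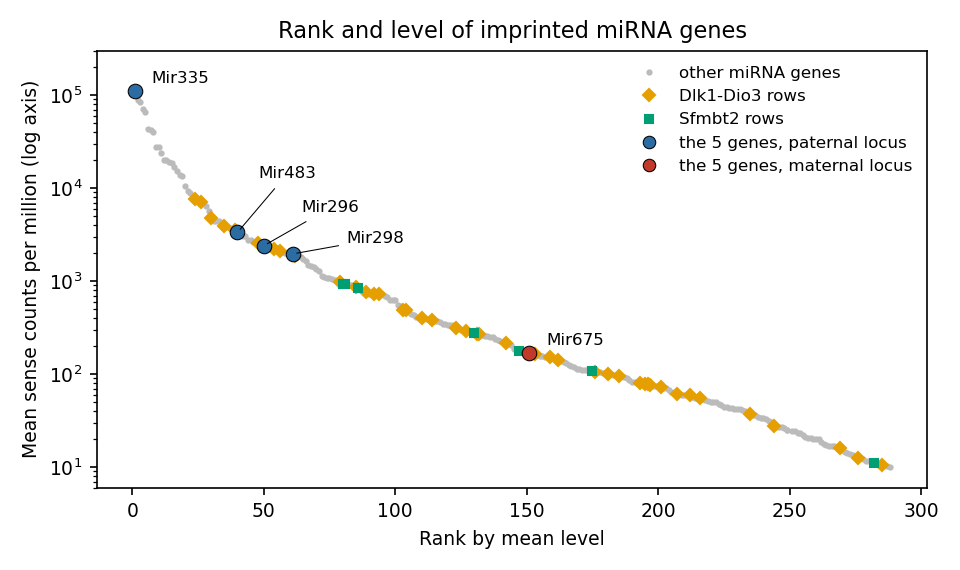
Mean CPM (log axis) against rank for the miRNA genes at 10 CPM or more. Mir335 lies at rank 1, Mir483, Mir296 and Mir298 at ranks 40 to 61 among the higher rows of the Dlk1-Dio3 domain (orange), and Mir675 at rank 151, below the first rows of the Sfmbt2 cluster (green).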

How the data were processed

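The authors deposited whole-number counts of reads per miRNA gene, made from alignments to mm10 with GENCODE M4, per the notes that accompany the tables. The aligner, counter and trimming were not given in the sources used here. Beside 1973 gene rows, a table has 4 read classes, which stayed out of the totals (multi-mapping reads were 26.9% and 28.0% of all reads). GENCODE M21, also on mm10, supplied symbols, coordinates and hosts (1894 identifiers matched).

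The genes and lists were chosen with earlier results of these data known. CPM, ratios and exact Clopper-Pearson 95% intervals were computed from sense counts. Between libraries, each gene with a mean CPM of 10 or above was tested by the exact binomial test (two-sided, conditional on the gene's sum, totals as offset, Benjamini-Hochberg adjusted p under 0.05, 1.5-fold ratio, pseudocount of 1 CPM), checked on simulated counts. Genes named are the 5, the nearest 2 rows above and below each in rank, cell type markers and the 2 highest rows of each cluster. Alternatives used TMM (edgeR 4.0.16), DESeq2 1.42.0 size factors, other totals, filters, ratios and pseudocounts, both strands, and each library left out. Software was R 4.3.3, Python 3.11.15 and scipy 1.17.1.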

Additional observations from a re-analysis of the deposited data

How the results depend on the processing

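Each gene's level depended on the total it was divided by. With reads that mapped to several places in the total, the levels were 69779 CPM for Mir335, 2116 for Mir483, 1524 for Mir296, 1244 for Mir298 and 108 for Mir675. With Mir335 out of the total, Mir483 stood at 3751, Mir298 at 2206 and Mir675 at 191 CPM. With both strands counted, Mir335 stood at 104485 and Mir298 at 1864 CPM, the 5 genes at 11.2% and the Sfmbt2 rows at 0.315% of counts. Opposite-strand counts at the 5 genes themselves were 2 and 5 in all, so that change comes from the total. TMM scaling moved no level of the 5 by more than its SD. With 2 libraries its factors are near reciprocal (1.03 and 0.967), so a mean level could hardly move.

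The log2 ratio of the paternal genes to Mir675 was 5.50 without Mir335 and 4.30 with Mir483 alone. Counts per nucleotide of hairpin, a setting chosen after the data were seen, gave log2 ratios for Mir335 of 4.62 over Mir483, 5.22 over Mir296, 5.55 over Mir298 and 9.12 over Mir675, and for Mir483 of 0.93 over Mir298 and 4.50 over Mir675, with no change of order.

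The number of genes called between the libraries was 39 at a mean of 1 CPM or more, 45 with no filter and 2 at a ratio of 2. None of the 5 was called under any of the 8 settings. The log2 ratio of Mir298 between the libraries changed sign to -0.0604 under TMM and -0.0626 under DESeq2 scaling. Dlk1-Dio3 rows without a shared run of 20 nucleotides took 2.86%. With only those rows, a setting for ratios chosen after the data were seen, the log2 ratio was 2.04 for the 5 genes over Dlk1-Dio3, 2.07 for paternal over maternal rows, 1.39 for maternal over paternal rows without Mir335, and 7.40 for Dlk1-Dio3 over Mir675. That check is void for Sfmbt2, where 0 of 107 rows had a hairpin in the table.

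With 2 libraries, leaving each out in turn returns the value of the other, so the ranges here restate the values per library. Levels ranged from 108334 to 111799 CPM for Mir335, 3150 to 3528 for Mir483 and 2117 to 2693 for Mir296. Those of Mir298 ranged from 1937 to 1989 CPM and those of Mir675 from 163 to 176 CPM. The log2 ratio of the paternal genes to Mir675 ranged from 9.40 to 9.48. No paired analysis was possible because there is 1 group. Mir675, with 907 and 1065 counts, has the widest counting error of the 5 relative to its level.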

Other observations

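Together, the rows of the imprinted loci listed (the 5 genes, Dlk1-Dio3 and Sfmbt2) took 16.6% and 16.5% of all sense counts, from 165 of 1973 rows, and 54 of them reached a mean of 10 CPM. The SD of this share was 0.0735 percentage points (n = 2), beside 0.175 for the 5 genes and 0.237 for Dlk1-Dio3. The 5 genes were higher in replicate 2 (11.67% against 11.92%) and Dlk1-Dio3 in replicate 1 (4.61% against 4.28%). These opposite changes partly cancelled in the sum, so the set is not steadier than its parts.

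The hairpin of Mir335 had a GC content of 42.9%, and 19.7% of the 254 hairpins of tested genes had a lower one. Those of the other 4 genes had 53.7% for Mir298, 58.9% for Mir483, 63.1% for Mir675 and 63.3% for Mir296, against a median of 50.0%. With 5 genes no relation of GC content to level was tested.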
